A study of Mus musculus with 75 samples.

Results

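Lipogenesis is the making of fatty acids from sugar-derived carbon, and triglyceride synthesis is their attachment to glycerol for storage or export. The 35 genes described here were chosen by gene symbol for their role as enzymes and regulators of these pathways, with earlier results of these data known, and are 35 of the 55536 genes in the count table. They fall into 8 roles: 4 genes that supply carbon and NADPH, 3 of fatty acid synthesis proper, 5 desaturases, 5 elongases, 2 acyl-CoA synthetases, 11 genes of triglyceride assembly, 3 regulators and 2 patatin-like acyl hydrolases.

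In hepatocytes, citrate leaves the mitochondrion through Slc25a1 and is split to acetyl-CoA by Acly, while Acss2 makes acetyl-CoA from acetate. Acetyl-CoA carboxylase (Acaca, Acacb) makes malonyl-CoA, fatty acid synthase (Fasn) builds palmitate, and elongases and desaturases turn it into longer and unsaturated fatty acids that are esterified stepwise to glycerol-3-phosphate. Insulin acting through SREBP-1c (Srebf1) and sugar acting through ChREBP (Mlxipl) are the known transcriptional controls of the pathway in liver, and tributyltin (TBT) is an organotin known to activate PPARgamma and RXR.

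The series holds bulk RNA-seq of livers of male C57Bl/6 mice whose dams drank either vehicle or TBT (3.07 µM, for a daily dose of 0.5 mg/kg) up to weaning, so the TBT groups of all ages share this early exposure. At 3 weeks there were 7 vehicle and 8 TBT mice. At 5 months there were 8 vehicle mice, 16 TBT mice labelled low risk and 10 TBT mice labelled high risk, and nothing in the labels tells what the 5-month risk labels rest on. At 10 months there were 6 vehicle mice, 5 low-risk TBT mice, uninvolved liver of high-risk TBT mice (6 libraries counted as 5 samples) and 7 tumors of TBT mice. A further 10-month vehicle library labelled as a tumor was kept out of every group. No label says that mice came from separate litters, so p-values measure the spread between these mice.

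The 75 libraries held 2831666 to 45448610 assigned counts. The uninvolved libraries of mice 3 and 6 differed from each other by less (SD of log2 ratios 0.137) than any of 308 other pairs of libraries of 1 group (lowest 0.266), and were summed to 1 sample, written uninvolved 3+6. A further 6 libraries deviated technically by low depth, many genes detected or a high mitochondrial share, and results resting on them were recomputed without them. Xist, a transcript of the inactive X chromosome that is all but absent from male cells, was at 309.8 CPM in TBT mouse 4 of 3 weeks and at 95.9 CPM in low-risk mouse 24 of 5 months, and at 7.27 CPM or less in all other samples. Without these mice no member was called at 3 weeks and 18 in place of 19 were called between the 5-month risk groups, Pnpla3 being the call lost. Levels are CPM (counts scaled to a common library size), and changes are log2 fold changes with their standard error (SE). A gene was called when its adjusted p over all genes tested was under 0.05. In bulk liver, fewer cells of a type and less RNA per cell cannot be told apart. The hepatocyte marker Alb was at 42970 CPM or above in all 73 samples, tumors included.

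The promoters of 7 members are shown because 5 of these genes (Fasn, Acacb, Acss2, Thrsp, Pnpla3) fell together in high-risk livers at 5 months, while Mlxipl fell at 5 months but was not called at 10 months and Gpat3 rose at both ages. Each line gives the 250 bases before a transcription start, 5′ to 3′ on the strand of the gene, from RefSeq on GRCm38.p6. The Acacb window precedes a start inside the gene, whose annotated start is at chr5:114146535. Capitals mark matches, on either strand, to a CCAAT box (CCAAT), an E-box (CACGTG) or a sterol response element (TCACNCCAC).
Fasn, chr11:120824548-120824797, minus strand: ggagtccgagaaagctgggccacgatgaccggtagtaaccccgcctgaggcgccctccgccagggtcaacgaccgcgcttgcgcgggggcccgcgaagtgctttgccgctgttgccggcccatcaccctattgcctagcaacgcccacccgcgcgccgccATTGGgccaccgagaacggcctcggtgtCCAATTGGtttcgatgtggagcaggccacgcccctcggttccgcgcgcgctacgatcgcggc
Acacb, chr5:114165268-114165517, plus strand: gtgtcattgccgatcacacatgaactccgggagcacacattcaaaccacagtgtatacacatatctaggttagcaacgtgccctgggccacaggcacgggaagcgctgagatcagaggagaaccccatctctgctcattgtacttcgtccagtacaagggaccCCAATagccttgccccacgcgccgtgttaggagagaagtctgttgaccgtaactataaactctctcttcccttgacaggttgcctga
Acss2, chr2:155517793-155518042, plus strand: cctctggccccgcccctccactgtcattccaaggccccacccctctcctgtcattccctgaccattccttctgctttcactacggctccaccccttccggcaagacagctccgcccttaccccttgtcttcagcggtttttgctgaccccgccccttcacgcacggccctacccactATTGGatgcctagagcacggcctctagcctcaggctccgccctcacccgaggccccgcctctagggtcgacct
Thrsp, chr7:97417551-97417800, minus strand: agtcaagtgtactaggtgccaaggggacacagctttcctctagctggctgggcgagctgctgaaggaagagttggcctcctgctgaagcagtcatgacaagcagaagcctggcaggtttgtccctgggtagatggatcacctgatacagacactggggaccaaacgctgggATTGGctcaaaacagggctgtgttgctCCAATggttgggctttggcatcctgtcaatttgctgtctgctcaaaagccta
Pnpla3, chr15:84167566-84167815, plus strand: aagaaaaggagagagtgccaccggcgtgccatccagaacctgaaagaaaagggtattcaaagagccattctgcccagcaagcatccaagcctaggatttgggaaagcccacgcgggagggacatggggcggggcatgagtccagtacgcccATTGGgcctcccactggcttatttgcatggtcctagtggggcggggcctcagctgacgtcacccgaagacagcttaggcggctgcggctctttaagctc
Mlxipl first start, chr5:135089640-135089889, plus strand: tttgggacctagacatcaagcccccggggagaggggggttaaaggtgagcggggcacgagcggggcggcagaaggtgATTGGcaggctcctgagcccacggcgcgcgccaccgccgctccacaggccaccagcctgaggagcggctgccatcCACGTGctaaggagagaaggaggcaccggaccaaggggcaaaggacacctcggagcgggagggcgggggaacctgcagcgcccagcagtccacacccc
Mlxipl second start, chr5:135106641-135106890, plus strand: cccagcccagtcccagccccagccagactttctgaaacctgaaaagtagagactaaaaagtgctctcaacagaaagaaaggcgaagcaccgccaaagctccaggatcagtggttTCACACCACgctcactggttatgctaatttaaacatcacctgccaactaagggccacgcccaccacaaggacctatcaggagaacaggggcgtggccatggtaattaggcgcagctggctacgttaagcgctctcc
Gpat3, chr5:100845979-100846228, plus strand: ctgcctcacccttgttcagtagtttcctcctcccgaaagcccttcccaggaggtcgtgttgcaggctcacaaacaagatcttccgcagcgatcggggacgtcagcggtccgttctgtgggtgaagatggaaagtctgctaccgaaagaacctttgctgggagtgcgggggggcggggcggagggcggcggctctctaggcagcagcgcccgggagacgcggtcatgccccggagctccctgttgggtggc

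Windows were found for 28 of the 35 members. A CCAAT box stood in the windows of 16 of these 28 genes (57.1%), against 37.5% of all genes with a window searched. The search left out the windows of 1 chromosome and windows of other lengths, here and in the shares of all genes below. The E-box was found in 5 of 28 (17.9%; Elovl5, Lpin2, Mlxipl, Pnpla5 and Slc25a1), against 6.86% of all genes. The sterol response element was found in 1 member, the second start of Mlxipl, against 1.23% of all genes. A direct repeat of AGGTCA with a spacer of 4 bases, the form bound by LXR with RXR, was in none of the 28 and in 0.0148% of all genes. The Gpat3 window held none of these letters, and the Fasn window held 3 CCAAT matches, of which a pair overlap in a palindrome. A match is a description of the letters and not a binding site.

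The members are spread over the genome, with 7 on chromosome 19 (Scd1, Scd2, Elovl3, Fads1, Fads2, Gpam, Acsl5) and 5 on chromosome 11 (Fasn, Acaca, Acly, Fads6, Srebf1). Fasn lies at chr11:120805846-120824547 on the minus strand, Scd1 at chr19:44394455-44407879 on the minus strand and Scd2 at chr19:44293674-44306864 on the plus strand (GRCm38). Per kilobase of exon, Scd1, the main stearoyl-CoA desaturase of liver, had the highest level of the 35 in each group ranked, with a median of 4671 CPM per kb in 10-month vehicle livers. Next in those livers were Elovl5 at 368 and Elovl3 at 358.9 CPM per kb. Srebf1 ranked in the middle at 32.1 CPM per kb. The lowest were Pnpla5 at 0.392 and Gpat3 at 0.386 CPM per kb.

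Age was compared among vehicle livers of sequencing batch 1, which answers how these genes stood without TBT. The medians and ranges given for 5 months are of all 8 vehicles, including vehicle 8 of batch 2, which was not in the test. From 3 weeks to 5 months 14 members fell and 3 rose (24.2% of all genes were called, 12.3% lower). Those that fell included Fasn, Acaca, Acly, Lpin1 and both patatin-like genes, while the elongase Elovl3 rose the most. Without the deviating libraries of these ages 14 fell and 6 rose (39.2% of all genes were called), the latter being Elovl1, Elovl3, Fads6, Gpat4, Agpat2 and Dgat1. From 5 to 10 months 4 members rose (Fads6, Gpam, Dgat2, Mogat1) and Gpat3 fell (14.1% of all genes were called). Without the deviating libraries 3 members rose and 2 fell over this interval (3700 of 14690 genes were called). The median log2 change of the members was -0.29 over the first interval and 0.29 over the second, against 0.02 and -0.04 over all genes.

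Elovl3, which elongates saturated and monounsaturated very long chains, was between 1.90 and 15.5 CPM in 3-week vehicle livers (median 8.30). It was between 42.7 and 783 CPM at 5 months (median 370) and between 375 and 921 CPM at 10 months (median 708.9). The 3-week range did not overlap either later range, and the rise from 3 weeks to 5 months was 5.85 on the log2 scale (SE 0.59, adjusted p = 4.57e-07). Fasn went from a median of 1429 CPM (956 to 1891) to 512 CPM (401 to 1679), a log2 change of -1.25 (SE 0.39, adjusted p = 0.0215). Pnpla3, a lipid droplet protein with acylglycerol hydrolase and transacylase activity, went from a median of 9.32 CPM (5.65 to 15.8) to 1.997 CPM (0.67 to 4.54), with no overlap and a log2 change of -2.17 (SE 0.49, adjusted p = 0.00239). Lpin1, the phosphatidate phosphatase that makes diacylglycerol and is also a transcriptional coactivator, went from a median of 465 CPM to 79.8 CPM, but vehicle 5 of 5 months stood at 648.5 CPM; the log2 change was -1.70 (SE 0.50, adjusted p = 0.0167).

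**Figure D1:**
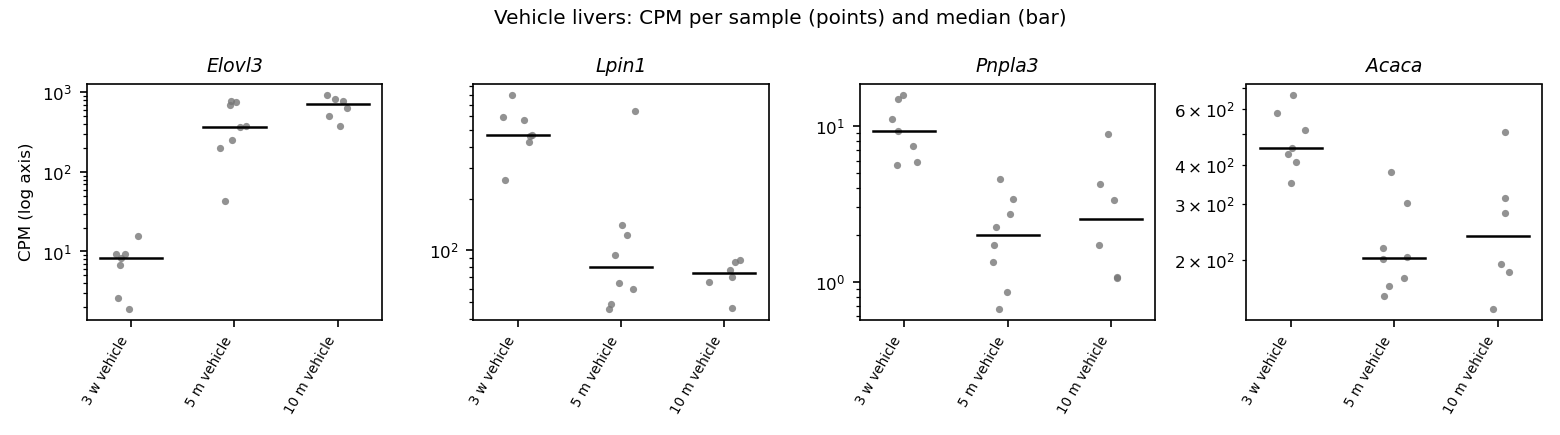
Levels of Elovl3, Lpin1, Pnpla3 and Acaca in vehicle livers at 3 weeks, 5 months and 10 months, in CPM on a log axis, 1 point per mouse with bars at the median. The 3-week points of Elovl3 (1.90 to 15.5 CPM) lie below all later ones, and those of Pnpla3 (5.65 to 15.8 CPM) lie above all of 5 months; the 5-month vehicle of batch 2 is drawn but was not in the test.

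Acaca, the cytosolic acetyl-CoA carboxylase, fell by 1.18 on the log2 scale from 3 weeks to 5 months (SE 0.24, adjusted p = 0.00103), and Acly fell by 1.25 (SE 0.30, adjusted p = 0.00364). Gpat4, a glycerol-3-phosphate acyltransferase of the endoplasmic reticulum, rose by 0.86 (SE 0.18, adjusted p = 0.00115). The desaturases Fads1 and Fads2, which make polyunsaturated fatty acids, fell by 0.75 and 0.72, and Scd2, the isoform typical of brain and of neonatal liver, fell by 1.12 (SE 0.29, adjusted p = 0.00667). Between 5 and 10 months Dgat2, which adds the last acyl chain of a triglyceride, rose from a median of 408 CPM to 582 CPM (0.63, SE 0.15, adjusted p = 0.01). Gpat3 went from a median of 3.97 CPM (0.34 to 29.1) to 1.35 CPM (0.36 to 3.22) over the same interval, a log2 change of -2.66 (SE 0.72, adjusted p = 0.0207); vehicles 4 and 6 of 5 months held 22.2 and 29.1 CPM and the other 6 held 5.99 CPM or less. Without a filter on low counts the calls of the first interval numbered 7 in place of 17 (4.74% of all genes), and those of the second 2 in place of 5 (2.46%).

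At 3 weeks, the youngest age, none of the 34 members tested differed between TBT and vehicle livers (edgeR; 0% of all genes were called, 474 of 14050 had an unadjusted p under 0.05, 1 of them a member). DESeq2 called 2 genes in all and no member. The range of TBT livers was wider than that of vehicle livers for Fasn and Scd1. Fasn ran from 568.4 to 3026 CPM in TBT livers (median 1283) and from 956 to 1891 CPM in vehicle livers (median 1429). Scd1 ran from 1592 to 21280 CPM in TBT livers (median 18230) and from 9615 to 20530 CPM in vehicle livers (median 15660). TBT mice 5, 6 and 8 were the lowest for Scd1 (8270, 1592 and 4325 CPM), and TBT mice 1, 2 and 4 were the highest for Fasn (2692, 2510 and 3026 CPM). TBT mouse 4 is the mouse with raised Xist (309.8 CPM). Without it the highest Fasn value of TBT livers was 2692 CPM, still above the vehicle range. The median log2 change of the members was -0.02, and their changes ran from -0.44 (Elovl3) to 0.36 (Scd2).

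At 5 months high-risk livers held less messenger RNA of 17 of the 35 members than low-risk livers, though both received TBT. Beside these, 2 rose (Scd2 and Gpat3) and 16 were not called. Over all genes 38.9% were called and 18.5% were lower, so the share of members lower was 17 of 35 against 18.5% of all genes. The counts by role given below stand beside these shares. The members' median log2 change was -0.45, against -0.01 over all genes. With plain library totals in place of TMM scaling the median of all genes moved to 0.30, 48.6% of all genes were called, and 11 members fell and 7 rose. At 10 months the same change of scaling moved it to 0.30 (uninvolved against low-risk).

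All 4 genes of carbon and NADPH supply fell in high-risk livers at 5 months. Acss2 was between 154 and 701 CPM in low-risk livers (median 273) and between 45.2 and 217 CPM in high-risk livers (median 81.5). The ranges overlapped, and the change was -1.69 (SE 0.26, adjusted p = 5.97e-06). Acly ran from 236 to 1462 CPM in low-risk livers (median 382) and from 174 to 551 CPM in high-risk livers (median 246.0), a change of -0.84 (SE 0.26, adjusted p = 0.0114) that was not called with plain library totals (-0.53). Me1, the cytosolic malic enzyme that yields NADPH, changed by -0.91 (SE 0.26, adjusted p = 0.00515), with medians of 171.5 CPM and 100.3 CPM. Of the 50-base windows of Me1 exons 22.9% occur in other genes, so its counts are uncertain. The citrate carrier Slc25a1 changed least of the 4, by -0.50 (SE 0.13, adjusted p = 0.00331), and was not called with plain library totals (-0.19).

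Of the 3 genes of fatty acid synthesis, Acacb and Fasn fell and Acaca did not pass the test. Acacb, the carboxylase at the mitochondrial surface whose malonyl-CoA restrains fatty acid oxidation, was between 87.7 and 467.0 CPM in low-risk livers (median 220.5) and between 43.8 and 183.0 CPM in high-risk livers (median 59.9). Its change was -1.71 (SE 0.27, adjusted p = 6.67e-06). Fasn ran from 409 to 3230 CPM in low-risk livers (median 670.1), with low-risk mice 14, 18 and 19 the highest (3230, 2396 and 1941 CPM), and from 318 to 835 CPM in high-risk livers (median 424). The Fasn ranges overlapped widely, and the change was -0.99 (SE 0.28, adjusted p = 0.00559). Acaca had medians of 229.6 and 193.6 CPM and a change of -0.48 (SE 0.21, adjusted p = 0.0694), and 30.4% of its 50-base exon windows occur in other genes.

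The desaturases parted. Scd1 fell from a median of 14840 CPM in low-risk livers (5004 to 38230) to 6601 CPM in high-risk livers (2970 to 15470), a change of -1.24 (SE 0.29, adjusted p = 0.000761). Scd2 rose from a median of 12.2 CPM (5.65 to 34.7) to 56.9 CPM (23.8 to 117.8), a change of 2.10 (SE 0.24, adjusted p = 1.25e-07). The Scd2 ranges overlapped through low-risk mouse 24 at 34.7 CPM, the mouse with raised Xist; the other 15 low-risk livers held 17.8 CPM or less, and without it the change was 2.28. Per kilobase Scd1 remained far above Scd2 in vehicle livers of all ages and in uninvolved liver (2414 against 5.15 CPM per kb in uninvolved liver). Fads6, a desaturase-like gene, changed by -0.39 (SE 0.16, adjusted p = 0.0428), a call lost in 9 of 26 fits that left out 1 mouse. Fads1 and Fads2 were not called (-0.09 and 0.24).

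Among the elongases Elovl3 and Elovl6 fell. Elovl3 was between 30.0 and 852 CPM in low-risk livers (median 326) and between 1.34 and 154.5 CPM in high-risk livers (median 30.5), the largest fall of the 35 (-2.90, SE 0.62, adjusted p = 0.000431; -3.49 without high-risk 22). Elovl6, which takes palmitate to stearate, changed by -0.99 (SE 0.26, adjusted p = 0.00275), with medians of 172.2 and 94.1 CPM. Elovl2 and Elovl5, which elongate polyunsaturated fatty acids, changed by -0.27 and -0.20 and were not called, nor was Elovl1 (0.24). Of the acyl-CoA synthetases, Acsl3 and Acsl5 were not called either (0.02 and -0.28).

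In triglyceride assembly Gpam, Agpat2 and Dgat2 fell, Gpat3 rose, and the other 7 members were not called. The share called, 4 of 11, was near the 38.9% of all genes called. Dgat2 was between 311 and 761 CPM in low-risk livers (median 573) and between 159.8 and 408 CPM in high-risk livers (median 217), a change of -1.17 (SE 0.15, adjusted p = 2.26e-07). Gpam, the mitochondrial acyltransferase that starts glycerolipid synthesis, changed by -0.61 (SE 0.15, adjusted p = 0.00152). Gpat3, which starts the same pathway at the endoplasmic reticulum and is the main isoform of fat cells, was between 0.40 and 11.7 CPM in low-risk livers (median 3.05) and between 12.7 and 40.6 CPM in high-risk livers (median 22.6). All 10 high-risk samples stood above all 16 low-risk samples, and the change was 2.83 (SE 0.42, adjusted p = 3.36e-06). Exons of the opposite-strand gene 4930458D05Rik cover 30.0% of Gpat3 exons, and the strand setting of the counting is not given in the sources used here, so the Gpat3 counts are uncertain. 4930458D05Rik stood higher in the same groups as Gpat3, at a median of 1.18 CPM in high-risk livers (0.83 to 1.935) against 0.35 CPM in low-risk livers (0 to 0.85), and at 1.01 CPM in uninvolved liver and in tumors against 0.21 and 0.12 CPM in low-risk and vehicle livers of 10 months. Gm42987, on the same strand, covers 7.40% of Gpat3 exons and had medians of 0.24 CPM in high-risk and 0.46 CPM in uninvolved samples, against 0 in low-risk livers of both ages. The part of either gene in the Gpat3 change was not tested. Agpat2 fell by 0.53 (SE 0.16, adjusted p = 0.00779), and neither Gpam nor Agpat2 was called with plain library totals (-0.32 and -0.22).

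Of the 3 regulators Thrsp and Mlxipl fell. Thrsp (Spot 14), which responds to thyroid hormone and sugar and promotes fatty acid synthesis, was between 42.0 and 514 CPM in low-risk livers (median 146.8) and between 10.3 and 103.5 CPM in high-risk livers (median 15.4). High-risk mice 1 and 22 were the highest of their group (66.0 and 103.5 CPM), and the change was -2.81 (SE 0.49, adjusted p = 3.63e-05). Mlxipl was between 55.1 and 221 CPM in low-risk livers (median 116) and between 24.02 and 78.6 CPM in high-risk livers (median 38.6), a change of -1.29 (SE 0.25, adjusted p = 9.07e-05). Srebf1 had medians of 187.9 and 158 CPM, in overlapping ranges, and was not called (-0.28, SE 0.21, adjusted p = 0.288). Pnpla3 and Pnpla5, neighbours on chromosome 15, changed by -1.38 (SE 0.54, adjusted p = 0.0412) and -2.52 (SE 0.89, adjusted p = 0.0229). Pnpla5 had a median of 0 CPM in high-risk livers and 0.46 CPM in low-risk livers, and its change was -4.69 without high-risk 22. The Pnpla3 call was lost in 10 of 26 fits that left out 1 mouse.

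**Figure D2:**
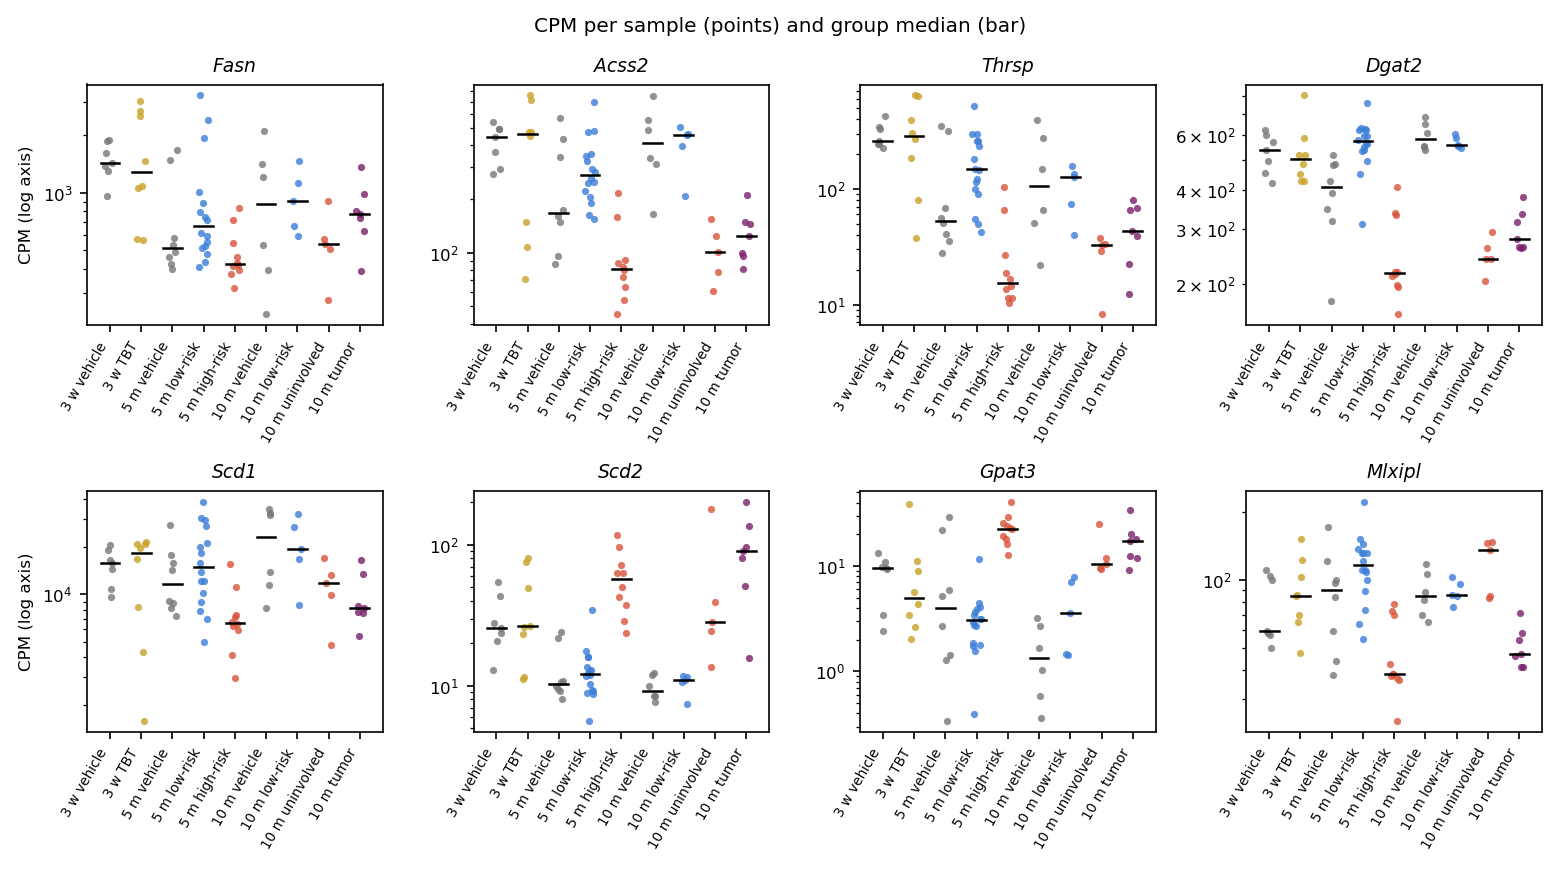
Levels of Fasn, Acss2, Thrsp, Dgat2, Scd1, Scd2, Gpat3 and Mlxipl in CPM on a log axis, 1 point per sample in 9 groups, with bars at the group median. High-risk 5-month and uninvolved 10-month points sit low for Acss2 (medians 81.5 and 101.1 CPM) and high for Gpat3 (22.6 and 10.45 CPM), while Mlxipl is low in high-risk livers and tumors (38.6 and 47.2 CPM) but not in uninvolved liver (136.2 CPM).

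Sequencing batch bears on the 5-month values. In batch 2, with 7 high-risk and 10 low-risk samples, 18 members were called (32.3% of all genes were called), 4 of them higher (Scd2, Gpat3, Lpin2 and Lpin3). In batch 1, with 3 high-risk and 6 low-risk samples, 3 members and 4.69% of all genes were called, the members being Scd2 (1.33), Thrsp (-3.31) and Dgat2 (-1.23). Several others had like changes there without passing the test, such as Scd1 (-1.24), Acacb (-1.48) and Gpat3 (3.06), while the change of Acly was smaller (-0.32). Without the deviating libraries 18 members were called, 3 of them higher, and 39.7% of all genes.

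Against 5-month vehicle livers, high-risk livers had 13 members lower and 2 higher (15.8% of all genes were called, 7.38% lower). Acacb (-1.92, SE 0.32, adjusted p = 0.000286), Acss2 (-1.77, SE 0.31, adjusted p = 0.000415), Thrsp (-2.58, SE 0.56, adjusted p = 0.00255) and Elovl3 (-2.92, SE 0.70, adjusted p = 0.00563) fell the most clearly, and Scd2 (1.86, SE 0.34, adjusted p = 0.00066) and Gpat3 (1.80, SE 0.55, adjusted p = 0.0245) rose. The vehicle livers were between 86.5 and 570.2 CPM for Acss2 (median 166.9), between 56.5 and 412 CPM for Acacb (median 209.4) and between 27.9 and 348 CPM for Thrsp (median 53.1), ranges that the high-risk livers overlapped at the lower end. This comparison shares the high-risk samples with the one above. With plain library totals 5 members fell and 5 rose (33.5% of all genes were called), and leaving out vehicle 8, the single vehicle of batch 2, left 8 calls. The Gpat3 call was lost without vehicle 2, vehicle 8 or high-risk 15. Within batch 1 no member and no gene was called. The 5-month vehicles themselves were uneven: mice 4 and 6 held Scd2 at 24.1 and 21.7 CPM and Mlxipl at 44.2 and 38.4 CPM, whereas the other 6 held Scd2 at 8.08 to 10.9 CPM.

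Low-risk livers did not differ detectably from vehicle livers in any member at either age. At 5 months 0 of 35 members and 0% of all genes were called by edgeR (934 genes had an unadjusted p under 0.05; DESeq2 called 52 genes and no member). At 10 months 0 of 35 members and 0% of all genes were called (688 genes at an unadjusted p under 0.05; DESeq2 called 1 gene and no member). The widest member changes were Pnpla5 at 5 months (-1.05, SE 0.98) and Gpat3 at 10 months (1.43, SE 0.56). These values do not show that the groups were alike.

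At 10 months the uninvolved liver of high-risk mice held less of 17 of the 35 members than low-risk liver. Beside these, 2 rose (Scd2 and Gpat3) and 16 were not called, while over all genes 52.4% were called and 24.7% were lower. The counts by role at this age stand beside these shares. The groups did not overlap for 16 members, 14 lower and 2 higher, against 29.8% of all genes tested. The median log2 change of the members was -0.61, against 0.05 over all genes. With plain library totals 14 fell and 4 rose, Elovl1 and Mlxipl among the latter (53% of all genes were called). The 6 uninvolved libraries also stood apart technically. They held 34762240 to 44585060 counts, 24676 to 28715 genes detected and 4.202 to 5.845% mitochondrial counts. The low-risk, vehicle and tumor groups of 10 months held 22502522 to 33486835 counts, 21078 to 23868 genes and 2.641 to 3.834% mitochondrial counts. The part of these library differences in the comparisons of uninvolved liver was not tested.

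All 4 genes of carbon and NADPH supply fell again. Acss2 was at 61.1, 77.5, 101.1, 124.7 and 154.6 CPM in the 5 uninvolved samples and at 207.7, 394, 453, 463 and 504.5 CPM in the 5 low-risk samples. The groups did not overlap, and the change was -1.98 (SE 0.36, adjusted p = 0.000378). Acly changed by -1.20 (SE 0.34, adjusted p = 0.00845), Me1 by -1.61 (SE 0.37, adjusted p = 0.00212) and Slc25a1 by -0.51 (SE 0.14, adjusted p = 0.00486), in each case without overlap. Acacb, at a median of 59.9 CPM against 295.8 CPM, changed by -1.86 (SE 0.49, adjusted p = 0.00592). Fasn was at 276, 509, 540.4, 576 and 903 CPM in uninvolved and at 593, 674, 909, 1125 and 1467 CPM in low-risk samples. Uninvolved 3+6 lay inside the low-risk range, and the change was not called (-0.78, SE 0.50, adjusted p = 0.204), nor was that of Acaca (-0.61, SE 0.27, adjusted p = 0.0636).

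Scd2 rose in uninvolved liver and Scd1 did not pass the test. Scd2 was at 13.6, 24.7, 28.2, 39.6 and 179.9 CPM in uninvolved samples, the last being uninvolved 3+6, and at 7.46, 10.6, 11.03, 11.6 and 11.8 CPM in low-risk samples. Each uninvolved sample stood above each low-risk sample (change 2.44, SE 0.55, adjusted p = 0.00207), and without uninvolved 3+6 the change was 1.34 (adjusted p = 0.000219). Scd1 had medians of 11810 and 19210 CPM and a change of -0.88 (SE 0.44, adjusted p = 0.0993). Among elongases 4 of 5 fell: Elovl3 (-1.39, SE 0.29, adjusted p = 0.000827), Elovl5 (-1.04, SE 0.27, adjusted p = 0.00481), Elovl2 (-0.74, SE 0.17, adjusted p = 0.00171) and Elovl6 (-1.16, SE 0.47, adjusted p = 0.0486), the last lost in each of 10 fits that left out 1 sample. The synthetase Acsl5 changed by -0.81 (SE 0.16, adjusted p = 0.000545), with no overlap. Fads6 was called at -0.23 (SE 0.09, adjusted p = 0.0403) but turned to 0.01 with plain library totals.

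Dgat2 had the smallest p of the members at 10 months. It was between 205.0 and 294 CPM in uninvolved samples (median 240.2) and between 547.5 and 606.5 CPM in low-risk samples (median 559.6), a change of -1.22 (SE 0.10, adjusted p = 1.4e-07). Gpam changed by -0.97 (SE 0.24, adjusted p = 0.00342) and Agpat2 by -0.54 (SE 0.13, adjusted p = 0.00293). Gpat3 was at 9.40, 9.52, 10.45, 12.03 and 24.97 CPM in uninvolved samples and at 1.43, 1.48, 3.56, 6.998 and 7.93 CPM in low-risk samples. The groups did not overlap (change 1.62, SE 0.54, adjusted p = 0.0204), and without uninvolved 3+6 the change was 1.27 with adjusted p = 0.0602. Neither Dgat1, which carries out the same last step as Dgat2, nor a lipin was called.

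Thrsp was at 8.23, 28.9, 32.9, 33.5 and 37.7 CPM in uninvolved samples and at 39.7, 74.4, 125.3, 135.4 and 158.4 CPM in low-risk samples. The groups did not overlap (change -1.93, SE 0.68, adjusted p = 0.0283), and the call was lost in 4 of 10 fits that left out 1 sample (low-risk 4 or 10, uninvolved 3+6 or 7), with adjusted p up to 0.0651. Pnpla3 was at 0.98 CPM or below in uninvolved samples and at 1.71 CPM or above in low-risk samples (change -2.33, SE 0.57, adjusted p = 0.00322). Pnpla5 changed by -3.22 (SE 1.09, adjusted p = 0.0217), by -3.99 without uninvolved 3+6, and without low-risk 10 its adjusted p was 0.0581. Mlxipl was at 83.0, 85.2, 136.2, 145.6 and 147.7 CPM in uninvolved samples and at 75.8, 85.1, 85.8, 95.9 and 103.6 CPM in low-risk samples, in overlapping ranges (change 0.41, SE 0.18, adjusted p = 0.0701). Srebf1 was not called here either (-0.25, SE 0.26, adjusted p = 0.425).

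Against 10-month vehicle livers, uninvolved liver, the same samples as above, had 18 members lower and 3 higher (57.7% of all genes were called, 26.5% lower). For 10 members the groups did not overlap, 2 higher and 8 lower, against 30.8% of all genes. Acss2 changed by -2.08 (SE 0.35), Elovl3 by -2.004 (SE 0.28), Dgat2 by -1.28 (SE 0.10) and Gpat3 by 3.05 (SE 0.55). Mlxipl was called higher at 0.43 (SE 0.17, adjusted p = 0.0448), a call lost in 7 of 11 fits that left out 1 sample. Scd2 rose by 2.54 (SE 0.52, adjusted p = 0.000795) and, without uninvolved 3+6, by 1.43 (adjusted p = 5.55e-05); when the vehicle library labelled as a tumor, with Scd2 at 91.2 CPM, was counted among the vehicles the change was 1.41 and not called. With plain library totals 13 members fell and 5 rose (60.6% of all genes were called).

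The comparisons of the 2 ages share no samples. Of the members, 14 fell in both: Acacb, Acly, Acss2, Agpat2, Dgat2, Elovl3, Elovl6, Fads6, Gpam, Me1, Pnpla3, Pnpla5, Slc25a1 and Thrsp, while Gpat3 and Scd2 rose in both. Calls of Elovl6, Fads6, Pnpla3, Pnpla5, Thrsp and Gpat3 were among those lost in some fits that left out 1 sample, as given above. Of the 14678 genes tested at both ages 12.5% were lower in both and 14.8% higher in both. Called lower at 5 months alone were Fasn, Mlxipl and Scd1, and at 10 months alone Acsl5, Elovl2 and Elovl5. A call at 1 age and not the other does not show a difference. The test of the difference between the ages itself called 1 member of 35, Mlxipl (0.353% of all genes were called). Its log2 change between risk groups was 1.71 higher at 10 months than at 5 months (SE 0.37, adjusted p = 0.0338); with genes of low counts kept in, the call was lost (1.73). For Fasn the difference between ages was 0.22 (SE 0.56, adjusted p = 0.925), and for Elovl5 it was -0.81 (SE 0.36, adjusted p = 0.362). In this test age cannot be told apart from the kind of sample, since the high-risk samples of 10 months were uninvolved liver. Batch was a covariate, but all 10-month libraries and only part of the 5-month ones were of batch 1.

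The 13 members called at neither age span several roles. Srebf1, whose protein is activated by cleavage, was between 51.5 and 304 CPM in low-risk and between 70.8 and 259.5 CPM in high-risk livers at 5 months, and between 156.8 and 229.5 CPM in low-risk and between 114.1 and 229 CPM in uninvolved samples at 10 months. The ranges overlapped at both ages. Fads2 had medians of 921.5 and 1233 CPM at 5 months and 1108 and 935 CPM at 10 months, and Fads1 had 750.5 and 745 CPM at 5 months and 852 and 646 CPM at 10 months. Lpin1 had a wide range at 5 months, from 43.6 to 819 CPM in low-risk and from 47.2 to 423 CPM in high-risk livers. Lpin2, Lpin3, Elovl1, Fads2 and Mogat1 were called higher in high-risk livers at 5 months with plain library totals (0.66, 0.57, 0.55, 0.55 and 1.71) but not with TMM scaling (0.33, 0.26, 0.24, 0.24 and 1.43). Gpat4, Agpat3, Dgat1 and Acsl3 had changes between -0.26 and 0.02 at both ages.

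**Figure D3:**
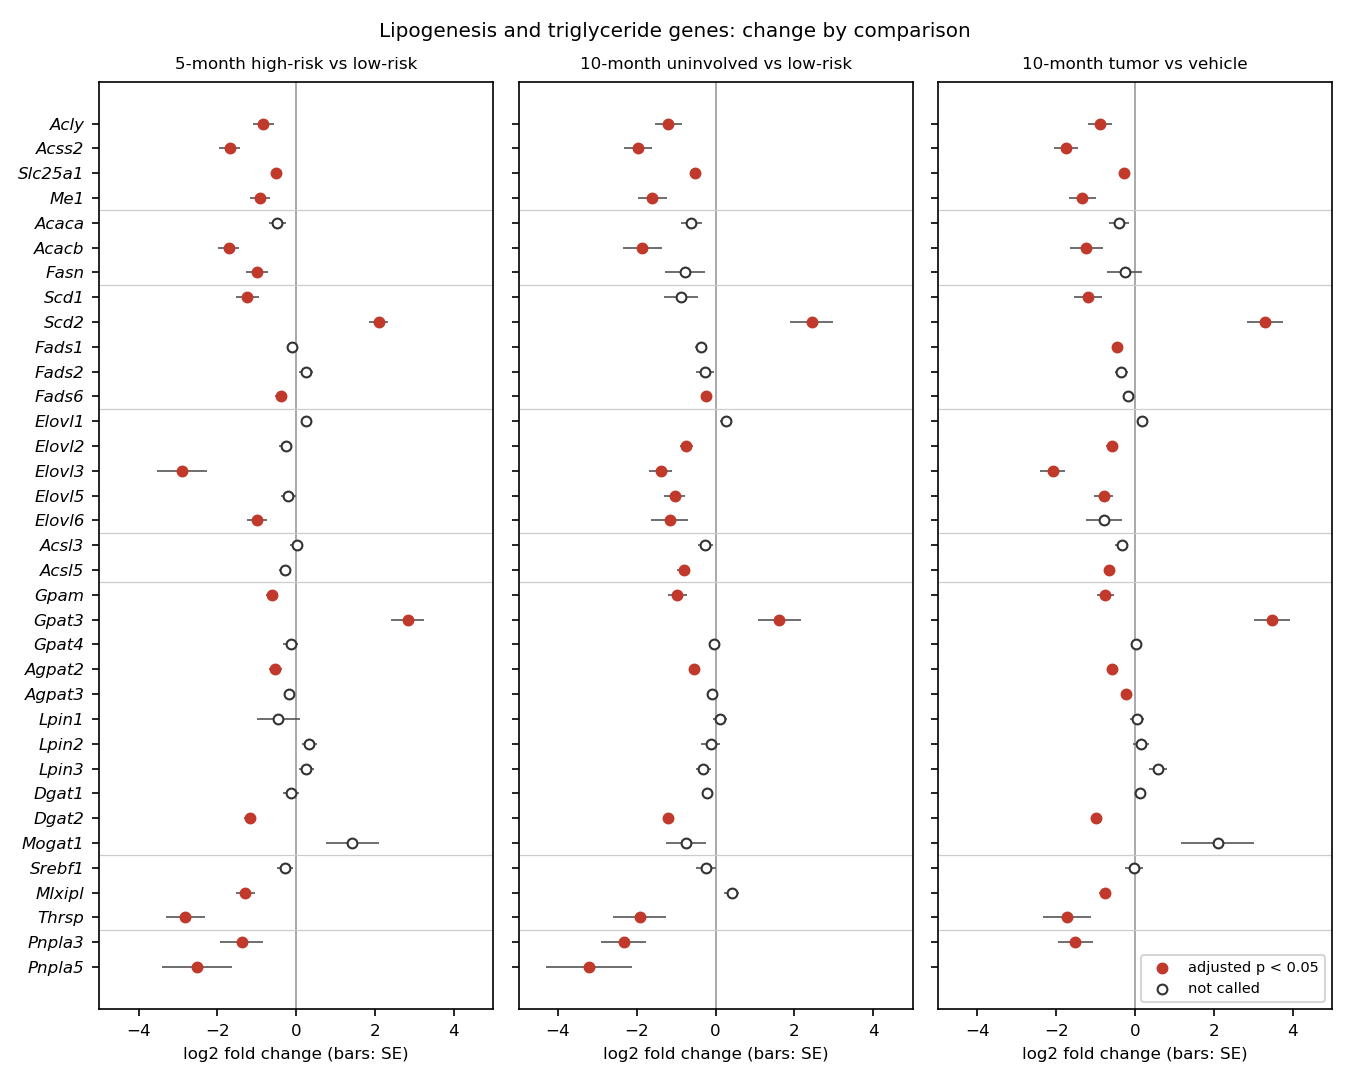
Log2 fold change with its standard error for the 35 members, ordered by role, for the 5-month risk groups (high minus low), uninvolved against low-risk liver at 10 months and tumors against 10-month vehicle livers. Filled red points passed an adjusted p of 0.05; Scd2 and Gpat3 lie to the right in each panel (2.10 and 2.83 in the first), and Mlxipl changes side between the first panel (-1.29) and the second (0.41).

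Tumors differed from uninvolved liver in 1 of 34 members tested, Mlxipl (18.1% of all genes were called). Mlxipl was between 41.3 and 71.8 CPM in the 7 tumors (median 47.2) and between 83.0 and 147.7 CPM in the uninvolved samples. Each tumor stood below each uninvolved sample, and the change was -1.23 (SE 0.19, adjusted p = 0.00183). The 34 members had a median change of 0.18. Mogat1, a monoacylglycerol acyltransferase, had a change of 3.08 (SE 1.03, adjusted p = 0.0546), not called, with tumor 12 at 21.3 CPM and no other tumor above 2.49 CPM.

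Tumor and uninvolved samples carry the same mouse numbers, so the mouse can enter as a pairing block. The block over 6 mice took uninvolved 3 and 6 as separate samples, unlike the main fit, so their pairs may not be independent. With the block over 6 mice, 5 of 34 members and 11.7% of all genes were called: Mlxipl lower (-1.07, adjusted p = 0.0252), and Fasn (0.46, adjusted p = 0.0268), Acacb (0.41), Thrsp (0.78, adjusted p = 0.0214) and Mogat1 (2.01, adjusted p = 0.0461) higher in tumors. Without mice 3 and 6, whose uninvolved libraries nearly coincide, 7 of 34 members and 18.2% of all genes were called: Fasn (0.50), Acacb (0.53), Scd2 (1.44), Thrsp (0.73), Gpat3 (0.89) and Dgat1 (0.54) higher and Mlxipl lower (-1.32). Mogat1 was not called in that fit (2.04, adjusted p = 0.0956). Leaving out 1 sample at a time from the fit without the block gave 1 to 4 calls, with 4 without uninvolved 3+6 or tumor 7 and 2 without tumor 5 or tumor 6.

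**Figure D4:**
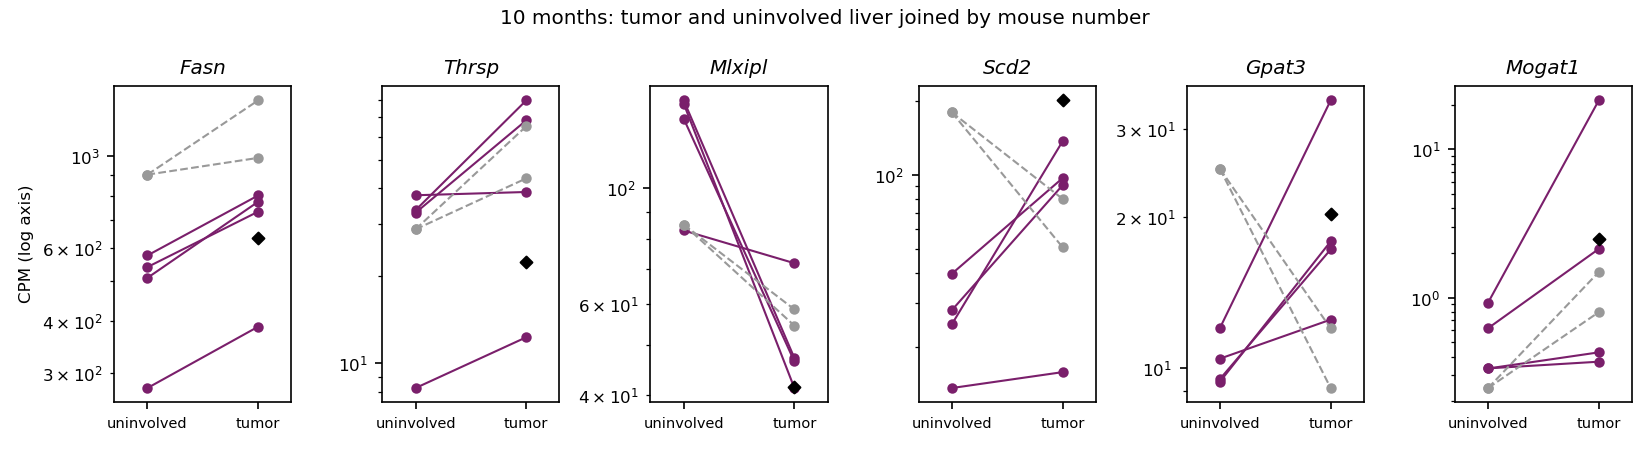
Levels of Fasn, Thrsp, Mlxipl, Scd2, Gpat3 and Mogat1 in uninvolved liver and tumor, in CPM on a log axis, joined by mouse number. Solid lines are mice 1, 5, 7 and 12, grey dashed lines join tumors 3 and 6 to the single summed uninvolved sample, and the black diamond is tumor 11, which has no uninvolved partner; all Mlxipl lines fall (uninvolved 83.0 to 147.7 CPM, tumors 41.3 to 71.8 CPM).

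Against 10-month vehicle livers 18 members were lower and 2 higher in tumors (45.9% of all genes were called, 21% lower). Scd2 was between 15.8 and 201 CPM in tumors and between 7.73 and 12.4 CPM in vehicle livers (change 3.30, SE 0.45, adjusted p = 9.28e-05), and Gpat3 was between 9.13 and 34.2 CPM against 0.36 to 3.22 CPM (3.48, SE 0.46, adjusted p = 7.22e-05). Neither gene's groups overlapped. Elovl3 (-2.08, SE 0.32), Acss2 (-1.74, SE 0.31), Dgat2 (-0.98, SE 0.11) and Mlxipl (-0.76, SE 0.16) fell, and so did Scd1 (-1.18, SE 0.36, adjusted p = 0.0141) and Fads1 (-0.45, SE 0.13, adjusted p = 0.0107). Fasn was between 388 and 1364 CPM in tumors (median 777) and between 231 and 2117 CPM in vehicle livers (median 871), and was not called (-0.26, SE 0.45, adjusted p = 0.663). With plain library totals 7 members fell and 7 rose (54.2% of all genes were called), and Slc25a1 (called at -0.29) and Agpat3 (called at -0.22) turned to 0.01 and 0.07.

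Over all 73 samples the members of the main route varied together, as a description over samples that share groups, ages and batches. Pearson's r of log2 levels was 0.91 for Fasn with Acaca, 0.90 for Acacb with Acss2, 0.90 for Acaca with Acly and 0.89 for Acacb with Thrsp. The 91 pairs among the 14 members that fell at both ages had a median r of 0.54 over samples that include the groups in which they fell, and all 595 pairs had a median of 0.24. Scd2 and Gpat3 had r = 0.64 with each other and negative values with much of the set, down to -0.62 for Acss2 with Gpat3 and -0.60 for Scd2 with Dgat2. Srebf1 had its highest r with Gpam, at 0.51. Outside the members, and among 9775 genes averaging 5 CPM or more, Slc17a4 (0.79) was among the genes most like Fasn, after Acaca, Acly and Elovl6. Those most like Scd2 were Mfge8 (0.88), Abcb1a (0.88), Golm1 (0.88), Stk10 (0.86) and Gstm3 (0.86).

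**Figure D5:**
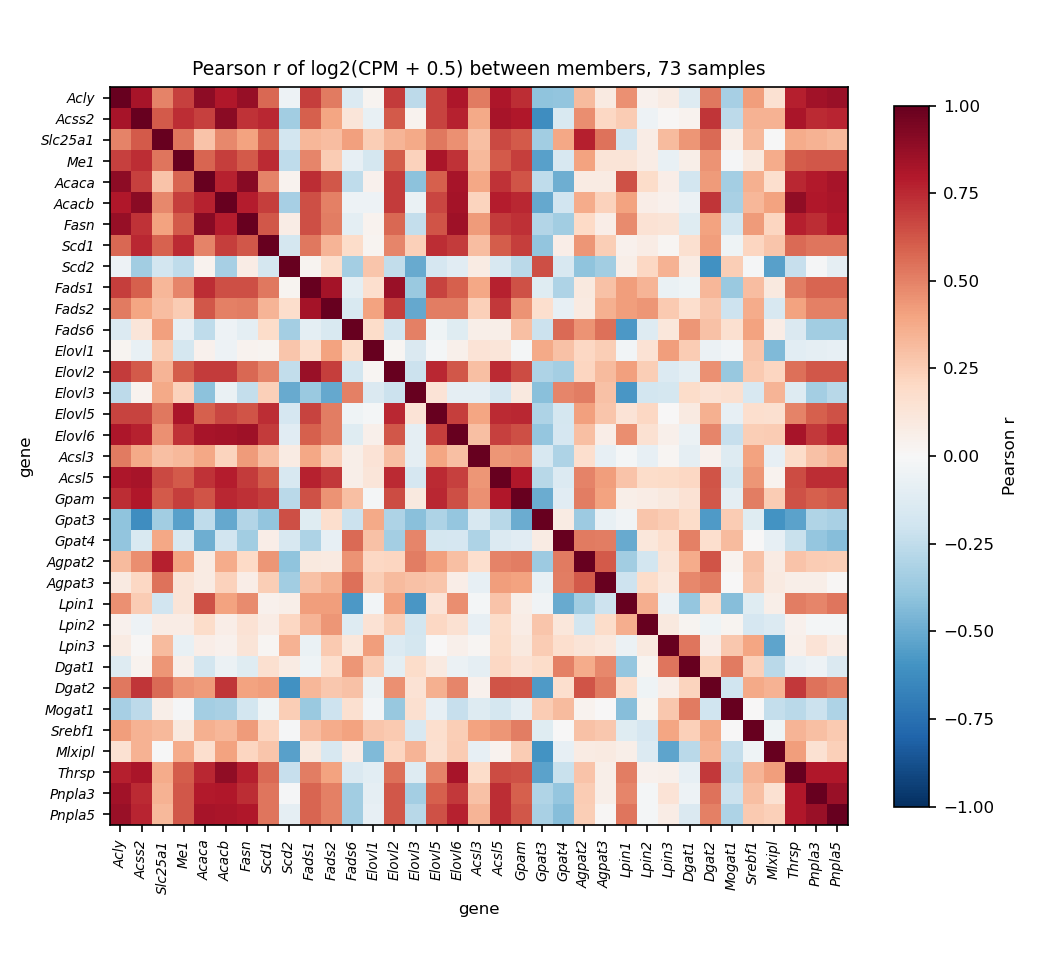
Pearson's r of log2(CPM + 0.5) between the 35 members over 73 samples, ordered by role, from blue (negative) to red (positive). Fasn, Acaca, Acly and Acacb form a positive block (0.91 for Fasn with Acaca), and the columns of Scd2 and Gpat3 are mostly negative (-0.62 for Acss2 with Gpat3).

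Genes around the members were followed through fixed lists. Their counts stand beside the 38.9% of all genes called at 5 months and the 52.4% at 10 months. Of 11 genes that control SREBP and LXR, 7 fell and Mbtps2 rose (0.56) in high-risk livers at 5 months: Scap, the SREBP escort (-0.92, SE 0.15), Insig1, which holds SREBP in the endoplasmic reticulum (-0.94, SE 0.17), Mid1ip1, a partner of Thrsp and activator of acetyl-CoA carboxylase (-0.76), Mlx (-0.59), Nr1h3, which encodes LXRalpha (-0.54), Usf1 (-0.48) and Srebf2 (-0.47). At 10 months Scap (-0.94, SE 0.10), Insig1 (-1.16, SE 0.18), Insig2 (-0.997) and Nr1h3 (-0.38) fell in uninvolved liver. Among genes of sugar and NADPH supply, Pklr (-1.94, SE 0.24), Khk (-1.59, SE 0.23) and Idh1 (-0.57) fell at 5 months and Pgd rose (0.68). At 10 months Pklr (-1.76), Khk (-1.17) and Idh1 (-0.96) fell. Pklr, the liver pyruvate kinase, is a classical ChREBP target, and its medians were 236.5 CPM in low-risk and 58.4 CPM in high-risk livers at 5 months, and 247.5 and 83.3 CPM at 10 months.

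Isoenzymes of the members did not all follow them. The counts of these lists, too, stand beside the 38.9% of all genes called at 5 months and the 52.4% at 10 months. Of 9 tested at 5 months, Elovl7 (2.83, SE 0.50, adjusted p = 3.28e-05) and Acsl4 (0.79) rose and Acsl1 fell (-0.80). At 10 months 8 were tested, Elovl7 (3.24, SE 0.52, adjusted p = 9.27e-05), Acsl4, Agpat1 and Agpat4 rose and Acsl1 fell (-0.98). Elovl7 had a median of 0.70 CPM in low-risk and 8.41 CPM in high-risk livers at 5 months, and 11.03 CPM in tumors. Of the rest of the elongation cycle 1 of 5 fell at 5 months (Tecr) and 3 of 5 at 10 months. Of 7 genes of triglyceride breakdown and export, Abhd5 and Mttp fell at 5 months, and 5 fell and Pnpla2, the main triglyceride lipase, rose (0.53) at 10 months. Of 5 further LXR targets, Abcg1 rose (0.69) and Abca1 fell (-0.44) at 5 months, and Abcg1 and Abcg5 rose at 10 months.

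Feeding state and time of day are known to move these genes. The counts of both lists are set beside the 38.9% of all genes called at 5 months and the 52.4% at 10 months. Of 8 fasting genes 4 rose in high-risk livers at 5 months (Igfbp1 by 2.26, Pdk4 by 1.27, Fgf21 by 1.25 and Ppargc1a by 0.80) and none fell, while at 10 months Ppargc1a rose and G6pc fell. Their summed level ran from 2729 to 6860 CPM in low-risk and from 3674 to 5976 CPM in high-risk livers. Of 10 clock genes 4 fell at 5 months (Nr1d1, Nr1d2, Per2 and Tef) and none rose, and at 10 months Per1 rose and Nr1d2 fell. Dbp, whose transcript swings widely over the day, had a median of 32.2 CPM in low-risk livers (0.46 to 98.8) and 2.45 CPM in high-risk livers (1.09 to 48.3) at 5 months, and 4.26 CPM in vehicle livers. With the log2 ratio of Dbp to Arntl as a covariate, 20 members were called at 5 months, 16 of them lower (32.7% of all genes were called), and 17 at 10 months (51.2% of all genes). The covariate came from the same libraries and the Dbp medians differed between the 5-month risk groups, so it cannot separate time of day from risk group. The part of feeding or of time of day in the results was not tested.

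Markers of other cell types were counted against the same shares of all genes. At 5 months 4 of 5 cholangiocyte and progenitor markers rose in high-risk livers (summed level 32.8 to 349.6 CPM against 27.3 to 221 CPM), as did 5 of 6 stellate and fibroblast markers (264.9 to 921 CPM against 75.8 to 184 CPM; Lrat fell) and 4 of 4 cycling genes (25.3 to 223 CPM against 5.63 to 38.2 CPM). At 10 months 5 of 5, 4 of 6 and 4 of 4 rose in uninvolved liver. Of 6 macrophage markers 3 rose and 1 fell at 5 months, and 2 rose and 3 fell at 10 months, while endothelial markers fell in 3 and 2 of 4. Of 6 hepatocyte markers 2 fell (Apoa1 and Ttr) and Tat rose at 5 months, and 2 fell (Alb and Ttr) and Tat rose at 10 months, with summed levels of 57170 to 162000 CPM in high-risk and 72730 to 168000 CPM in low-risk livers. Adipocyte markers summed to at most 29.9 CPM in any high-risk liver and 39.2 CPM in any tumor, and Cfd, the 1 of 5 that could be tested between risk groups, rose at 5 months (2.07) and was not called at 10 months. In tumors against vehicle the 3 tested (Adipoq, Plin1 and Cfd) rose. B and plasma cell markers gave 1 call at each age, erythroid markers 1 (Alas2, lower), and of 4 pancreatic acinar markers none was tested at 5 months and 1, Cela2a, was tested at 10 months and was lower. No marker was at 0 in all samples of a group with replicates. The part of these cells in the members' changes was not tested.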

How the data were processed

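Total RNA of mouse liver was sequenced from stranded total-RNA libraries, per the labels' protocols. The authors deposited 1 table of whole-number counts per gene, adjusted for sequencing batch by ComBat-seq, per the file's name; Trim Galore, HISAT2, featureCounts and mm10 are named in the submitters' processing notes, and the strand setting of counting is not given in the sources used here. Batch adjustment by the authors before deposit can shrink or create differences where batches are uneven, as at 5 months.

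The members and gene lists were chosen with earlier results of these data known. Libraries of 1 sample (vehicle mouse 3 at 3 weeks; uninvolved 3 and 6) were summed, which gave 73 samples from 75 libraries of 2831666 to 45448610 counts. The quasi-likelihood test of edgeR 4.0.16 (R 4.3.3) was run robustly on counts scaled by TMM and filtered by filterByExpr, with Benjamini-Hochberg adjustment over all genes tested and a threshold of 0.05; batch was a covariate at 5 months; vehicles of 2 ages were compared within batch 1. Scripts were tested on simulated data with 200 changed genes. Levels are CPM of TMM-scaled totals, as log2(CPM + 0.5) for correlations.

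All 35 members could be named; values by group were given for 16 key members and, per comparison, for up to 6 further called members with the largest changes, and other genes came from the lists alone. Likeness to Fasn and Scd2 used genes averaging 5 CPM or more. Tables were handled in Python 3.11.15 with pandas 2.3.3 and numpy 2.4.6. Tumors and uninvolved samples were paired by mouse number, since their titles carry the same mouse numbers; 1 of 6 such pairs had a correlation of deviations over 0.1 (-0.27 to 0.65). Alternatives were DESeq2 1.42.0, no filter on low counts, plain library totals, no batch covariate, single batches, other sets of groups in the fit, a replicate block, each sample left out, deviating libraries left out (the lowest depth, over 35000 genes or over 10% mitochondrial counts), and a clock covariate; the plain totals and the clock covariate were added after the data were seen. Isoenzymes and paralogs were checked by shared 50-base exon windows. A few genes of the lists and of the likeness ranking are not reported here.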

Additional observations from a re-analysis of the deposited data

Results flagged for a closer look

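In 9 of 128 groups of 4 to 10 samples, over the 16 key members, 1 sample lay far from the rest. The cutoff flags about 1 in 20 groups of normally spread values. CPM values need not be so spread and members vary together, so no excess over chance can be read from this count. In the high-risk livers of 5 months mouse 17 was far above the others for Acly (551.2 CPM, next 366.0) and for Acaca (370.3 CPM, next 253). Lpin1 was at 648.5 CPM in vehicle 5 of 5 months, with the next vehicle at 140.0 CPM. At 3 weeks Srebf1 was at 365.1 CPM in vehicle 1 (next 212.4), and Dgat2 was at 804 CPM in TBT mouse 6 (next 585.8).

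At 10 months uninvolved 3+6 held Scd2 at 179.9 CPM, with the next uninvolved sample at 39.6 CPM. Scd2 was also low in low-risk 9 (7.464 CPM, next 10.6), and Pnpla3 was high in low-risk 10 (7.285 CPM, next 3.15). Mogat1 was at 21.33 CPM in tumor 12, against 2.49 CPM in the next tumor.

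The change of Mlxipl between risk groups differed between ages by 1.705 on the log2 scale, by the test of the difference itself (edgeR, adjusted p = 0.0338): it was called lower in high-risk livers at 5 months and was not called in uninvolved liver at 10 months. Age and kind of sample cannot be told apart in this test.

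The 10-month vehicle library with the tumor label was in none of the groups compared. Of the 16 key members 3 stood above all 6 vehicle livers of 10 months in it: Scd2 at 91.24 CPM (vehicles 7.73 to 12.4), Fads1 at 1018 CPM (610.3 to 907) and Lpin1 at 112.4 CPM (46.6 to 88.2). A further 2 stood below all vehicles. It held 11508759 counts, 14.1% of them mitochondrial.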

How the results depend on the processing

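Of 1457 values recomputed with 1 sample left out, 1351 kept their direction and their side of the threshold, 106 lost the call and 0 reversed; of 998 under the other alternatives the numbers were 832, 159 and 7. In high-risk against vehicle livers at 5 months 15 members were called (2341 of 14773 genes). Brackets give genes called of all genes tested. The calls became 6 without a filter on low counts (1211 of 48210 genes) and 9 without the batch covariate (2671 of 14773). They numbered 9 with 2 groups in the fit (1338 of 14087) and 0 within batch 1 (0 of 16465). With 1 sample left out 8 to 16 members and 1373 to 4264 genes were called. A replicate block called 1 (65 of 14423 genes), but kept only the 3 pairs of mice whose number occurs in both groups. Within batch 1, high-risk against low-risk livers gave 3 calls (773 of 16465 genes). With 1 sample left out the calls were 17 to 20 (5194 to 6088 genes). Tumor against uninvolved liver gave 4 calls with DESeq2 (3927 of 16362 genes) and 5 with all 10-month groups in the fit (5346 of 16901). It gave 2 with uninvolved 3 and 6 kept apart (3100 of 16117) and 5 with the replicate block, which also kept them apart (1920 of 16404). Without mice 3 and 6 the block gave 7 (3037 of 16728). Leaving out 1 sample gave 1 to 4 member calls and 1580 to 3948 genes called. Without a filter vehicle livers gave 7 calls for 5 months against 3 weeks (2172 of 45850 genes). They gave 2 for 10 against 5 months (1128 of 45850), and the difference between ages had 0 (10 of 48661). With 1 sample left out, uninvolved liver gave 16 to 21 calls against low-risk (7595 to 9255 genes). Against vehicle it gave 18 to 24 (8490 to 10014), and tumors gave 16 to 20 against vehicle (6267 to 7314). TBT against vehicle at 3 weeks and low-risk against vehicle at both ages gave 0 (at most 3 genes). DESeq2 gave 20 calls for high-risk against low-risk (6155 of 14773 genes) and 21 for uninvolved against low-risk (8817 of 16338).

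Plain library totals reversed 5 called values of single genes: Fads6 (0.0134) and, against vehicle, Fads6 (0.0523) and Dgat1 (0.0247) in uninvolved liver, and Agpat3 (0.0694) and Slc25a1 (0.0126) in tumors. The replicate block reversed Agpat2 (0.24) and Dgat2 (0.031) in high-risk against vehicle livers, in a fit of only 3 pairs of mice. Apart from tumor and uninvolved liver, groups share a number but no animal. Block fits of such groups kept only mice whose number occurs in both, so they are no like test of the full groups. With the block, calls numbered 0 at 3 weeks (7 pairs, 0 of 13973 genes). They were 0 and 0 for low-risk against vehicle (5 and 2 pairs, 0 of 13130 and 14926 genes). For uninvolved against vehicle they were 20 (4 pairs, 7513 of 16413) and for tumor against vehicle 14 (4 pairs, 3972 of 15141). The causes were not tested. Depth limits the lowest members most, since Pnpla5 had a median of 0 CPM in high-risk livers and Mogat1 was under 1 CPM in most groups.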
